A study of Mus musculus with 16 samples.

Results

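The 10 genes described here belong to the output side of the circadian clock in mouse soleus muscle. They are the period genes Per1, Per2 and Per3, the REV-ERB genes Nr1d1 and Nr1d2, the PAR-bZIP transcription factor genes Dbp, Tef and Hlf, and the repressor genes Ciart and Bhlhe41. They were chosen by name as clock genes known to be driven through E-box or D-box promoter elements. Earlier results of these data were known when they were chosen. Each had at least 1 probe assigned through the RefSeq transcript that the array names, so 10 of the 20972 genes with a named probe are covered. All 10 passed the filter for dim probes, which asked for 3 or more of the 16 arrays to show the probe well above background. Ciart passed with 8 arrays and Per2 with 10, while the other 8 genes were above background on all 16.

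The circadian clock of a mammalian cell is a feedback loop of transcription. The activators CLOCK and BMAL1 (gene Arntl) bind E-boxes and switch on the Per, Cry, Nr1d, Dbp, Tef, Hlf, Ciart and Bhlhe41 genes. PER and CRY proteins, CIART and BHLHE41 then hold the activators back, REV-ERB proteins repress Arntl and Nfil3, and DBP, TEF and HLF activate genes with D-boxes that NFIL3 represses. In muscle, as in other peripheral tissues, these genes cycle strongly over the day, so that their level in a single sample depends on the hour at which it was taken.

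Soleus is a slow-fibre muscle of the lower hindlimb. It came from male mice, with strain and age not given in the sources used here. Day 0 preceded a stepwise lowering of oxygen that reached 10% within the first week and was then held. The groups were day 0 (start, 4 RNA samples), day 3 (falling oxygen, 3 RNA samples), day 7 (end of the fall, 3 RNA samples) and day 14 (held oxygen, 4 RNA samples), and every one of them carries the hypoxia treatment label, day 0 included. Whether these were separate mice is not stated, so the p-values measure only the spread between RNA samples. The study's text names 4 per day, and any beyond the 3 of days 3 and 7 were not analysed here. The hour of sampling is not given, and its part in the differences below was not tested.

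The 16 arrays lay on 2 slides with 8 arrays each. Slide 1 held days 3 and 7 with day 0 RNA samples 1 and 2, and slide 2 held day 14 with the full set of 4 from day 0, so these 2 links between the slides carry every comparison of days 3 and 7 with day 0, and of day 14 with day 7. Slide 1 arrays showed 48.3% to 55.3% of their spots well above background, and slide 2 arrays 37.9% to 42.9%. The slow fibre markers, all 8 of them measured, averaged 8.38 to 8.80 log2 units above the 75th percentile of an array over the RNA samples. Precision is limited by how many RNA samples there were. RNA came from whole muscle, so fewer cells of a type and less RNA per cell cannot be told apart.

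The promoters were searched for the letters of clock-related elements. Of the 10 genes, 9 have an entry in the RefSeq promoter table of GRCm38.p6, which runs from 250 bases before to 50 after a transcript start (Per2 has none). The E-box CACGTG was searched on both strands and was found in 4 of these 9 genes (Ciart, Per1, Tef and Bhlhe41), against 7.15% of all 32851 windows. The variant CACGTT was found in Nr1d1 (4.68% of all windows), the D-box TTATGTAA in Per3 (0.938%) and the cAMP response element TGACGTCA in Hlf (1.79%). The windows of Dbp and Nr1d2 held none of the letters searched, and the palindromic D-box TTACGTAA, in 0.119% of all windows, was in no window of the 9 genes. The REV-ERB and ROR element TAGGTCA (2.61%) and its variant TGGGTCA (3.98%) were likewise in no window of the 9 genes, while TAGGTCA was in those of Nfil3 and Arntl. A match is a run of letters and not a measured binding site. The genes were chosen as driven through E-boxes or D-boxes, so a share above that of all windows is partly built in. Per1 and Tef have a window for each of their starts, so the share of genes and that of windows count unlike units. No 2 of the motifs overlap in the windows printed here.

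Ciart and Per3 are shown because each carries its motif more than once in the 250 bases before its start. Tef is shown as a gene that rose at day 7 over both days 0 and 3, and Nr1d1 for its E-box variant. Nfil3 is shown as a gene of the opposite arm with a course opposite to Dbp over days 0, 3 and 7. All run 5′ to 3′ in the direction of transcription, with the motif in capitals, at chr3:95882229-95882478, minus strand (Ciart), chr4:151044666-151044915, minus strand (Per3), chr15:81802516-81802581, plus strand and chr15:81811246-81811311, plus strand (2 starts of Tef), chr11:98775378-98775435, minus strand (Nr1d1, where the variant reads from the other strand) and chr13:52981040-52981081, minus strand (Nfil3, likewise).
Ciart: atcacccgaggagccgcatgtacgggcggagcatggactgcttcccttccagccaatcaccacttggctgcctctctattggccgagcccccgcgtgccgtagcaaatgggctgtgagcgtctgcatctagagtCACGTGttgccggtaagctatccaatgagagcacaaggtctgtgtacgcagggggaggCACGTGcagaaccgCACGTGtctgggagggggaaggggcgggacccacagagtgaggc
Per3: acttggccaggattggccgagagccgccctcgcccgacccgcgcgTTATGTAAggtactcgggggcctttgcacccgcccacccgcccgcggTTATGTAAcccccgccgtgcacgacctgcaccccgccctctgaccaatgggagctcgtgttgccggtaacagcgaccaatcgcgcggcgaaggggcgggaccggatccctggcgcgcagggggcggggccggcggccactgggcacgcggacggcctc
Tef, first start: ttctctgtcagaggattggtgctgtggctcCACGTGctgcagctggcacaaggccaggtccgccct
Tef, second start: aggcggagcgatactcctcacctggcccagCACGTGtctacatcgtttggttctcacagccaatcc
Nr1d1: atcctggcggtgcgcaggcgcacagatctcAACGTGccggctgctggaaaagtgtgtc
Nfil3: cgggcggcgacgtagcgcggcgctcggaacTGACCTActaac
Counted from the transcript start to the first base of a match, Ciart held 3 E-boxes, at -116, -58 and -44, and Per3 held 2 D-boxes, at -205 and -158. The E-boxes of Tef lay at -127 and -138 from its 2 starts, the variant of Nr1d1 at -28, and the element of Nfil3 at -12.

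**Figure D1:**
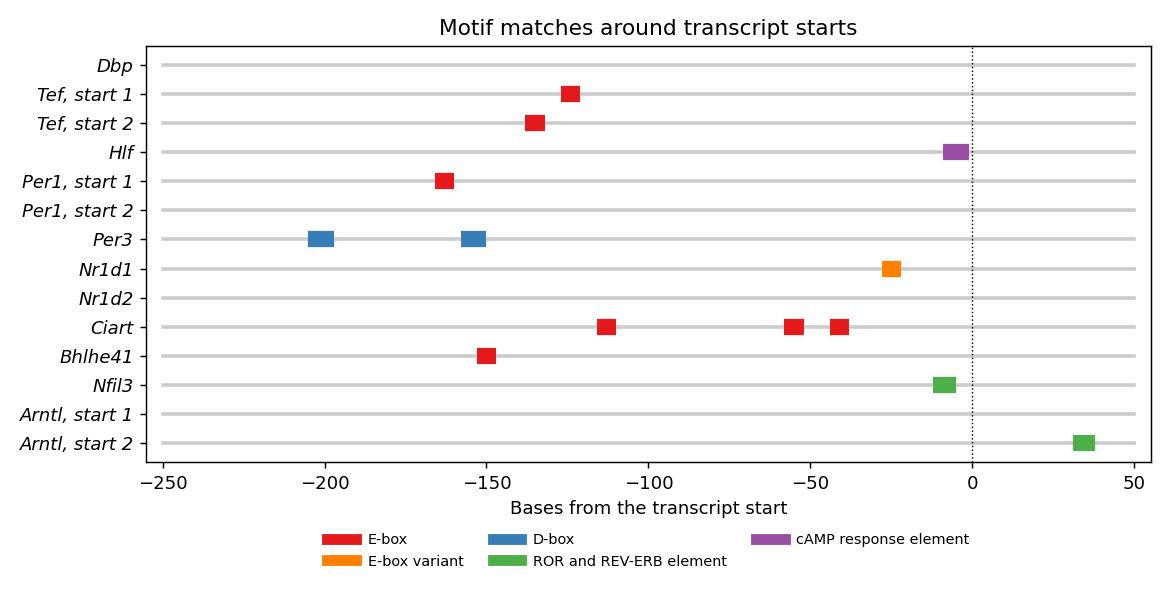
Position of each motif match (coloured block) along the promoter window of each gene start (grey line), in bases from the transcript start (dotted line at 0). Ciart has 3 E-boxes and Per3 has 2 D-boxes, while the windows of Dbp and Nr1d2 have no match.

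All levels below are log2 intensities relative to the 75th percentile of the array, so 0 is that percentile. They compare 1 probe between samples and never 1 gene with another. Differences are log2 values, later minus earlier day, from a model with day and slide, with ± for the SE unless SD is named, and a gene passed at an adjusted p under 0.05 over all 22126 features. Values called slide-adjusted are placed midway between the slides and averaged for each RNA sample.

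The mean slide-adjusted level of each of the 10 genes was lowest at day 3, and Dbp, Per3, Nr1d2, Tef and Ciart rose at day 7 over day 3. A test of any change from day 0 over days 3, 7 and 14 passed for 6 of the 10 genes (Dbp, Tef, Per3, Ciart, Nr1d1 and Nr1d2), where 17.1% of all features passed. Ciart entered this test through the days on which it was high, and 5 of the other 9 passed. All 10 differences of day 3 from day 0 were negative and all 10 differences of day 7 from day 3 were positive. These comparisons share the day 3 samples. At day 3 Ciart was well above background on 0 of 3 arrays, and Per2 only in RNA sample 1. For these genes, the day 3 level and the differences from it rest largely on background readings.

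**Figure D2:**
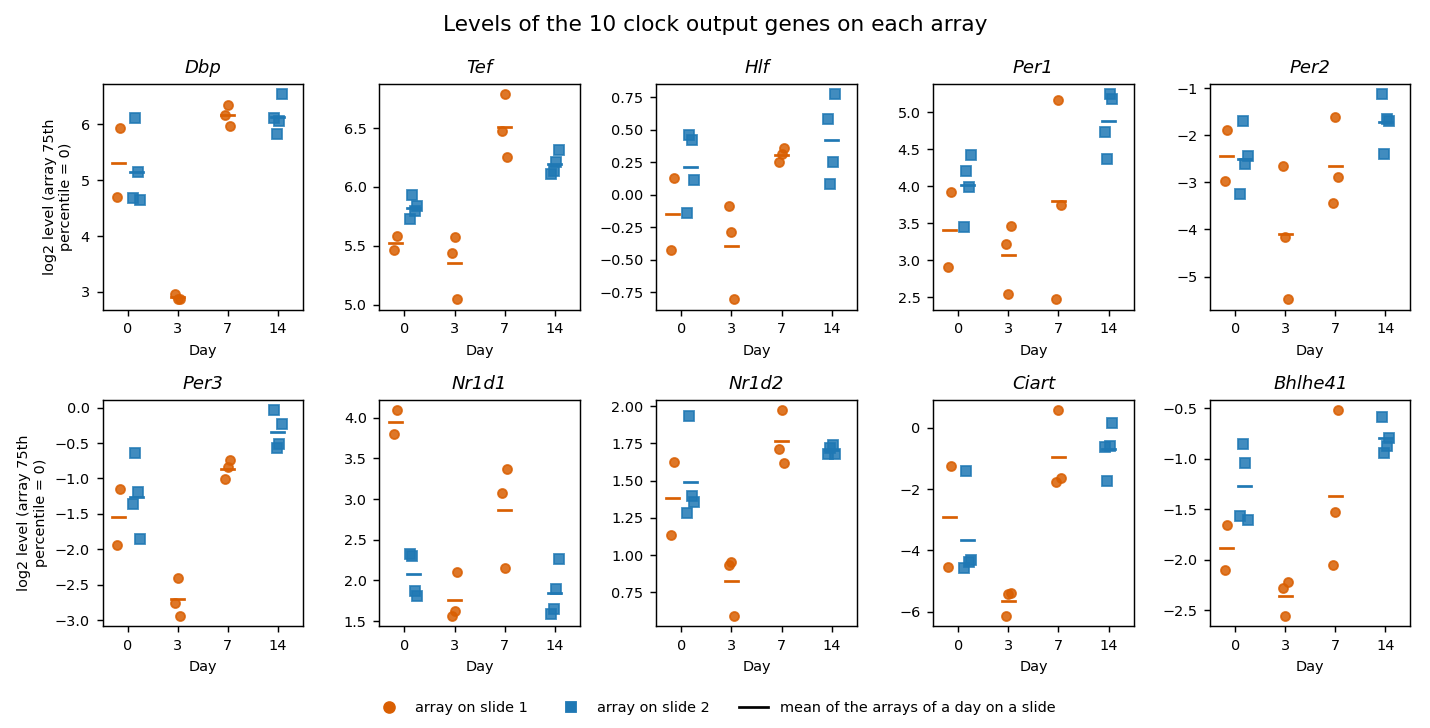
Level of each of the 10 genes on every array, in log2 units above or below the array's 75th percentile, by day, with orange circles for slide 1, blue squares for slide 2 and a bar at the mean of a day on a slide. Dbp lies between 2.87 and 2.97 on the 3 day 3 arrays and between 5.97 and 6.35 on the 3 day 7 arrays, and Nr1d1 of day 0 differs between the slides.

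Among the PAR-bZIP activators, Dbp had the widest course. DBP is a D-box activator whose transcript cycles with large amplitude in many tissues. On slide 1, Dbp had levels of 4.69 and 5.93 at day 0, of 2.97, 2.88 and 2.87 at day 3, and of 6.16, 6.35 and 5.97 at day 7. On slide 2 it had 6.12, 5.83, 6.06 and 6.55 at day 14, against 4.69, 6.12, 5.15 and 4.64 at day 0. Every day 3 array lay below every other array, and the day 7 and day 14 arrays, at 5.83 or above, lay at the level of the highest day 0 sample. At day 3 Dbp fell by 2.30 ± 0.35 (SE) against day 0, a 4.91-fold lower level (adjusted p = 0.00819). It rose at day 7 over day 3 by 3.26 ± 0.32, which is 9.55-fold (adjusted p = 0.00146), with a 95% interval of 2.56 to 3.95, and this was the feature with rank 1 by p among all 22126. The differences from day 0 of 0.96 ± 0.35 at day 7 and 0.99 ± 0.28 at day 14 did not pass (adjusted p = 0.0609 and 0.0986). The second Dbp probe had 3.29, 3.35 and 2.96 at day 3, against 4.25 and 5.53 at day 0 on slide 1, and 5.97, 6.19 and 5.84 at day 7. Its difference of day 7 from day 0 passed, at 1.21 ± 0.33 (adjusted p = 0.0192), as did the mean over both probes (1.09 ± 0.34, adjusted p = 0.0363).

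Tef, a second PAR-bZIP activator, rose at day 7 and did not pass at day 3. On slide 1 its levels were 5.46 and 5.59 at day 0, 5.44, 5.57 and 5.04 at day 3, and 6.48, 6.79 and 6.26 at day 7. On slide 2 they were 6.11, 6.14, 6.21 and 6.31 at day 14, against 5.73, 5.93, 5.80 and 5.84 at day 0. Day 3 overlapped day 0, while all day 7 arrays lay above both and all day 14 arrays lay above day 0 of their slide. Tef rose at day 7 by 0.99 ± 0.16 over day 0 (1.98-fold, adjusted p = 0.00308) and by 1.16 ± 0.15 over day 3 (2.23-fold, adjusted p = 0.00434). At day 3 the difference from day 0 was -0.17 ± 0.16 (adjusted p = 0.548), at day 14 it was 0.37 ± 0.13 (adjusted p = 0.145), and day 14 minus day 7 was -0.62 ± 0.19 (adjusted p = 0.0849). Hlf, the remaining PAR-bZIP gene, passed in no comparison. Its slide-adjusted level averaged 0.054 ± 0.27, -0.22 ± 0.37, 0.48 ± 0.054 and 0.25 ± 0.31 at days 0, 3, 7 and 14 (SD, n = 4, 3, 3 and 4). Hlf at day 7 was 0.70 ± 0.22 above day 3 (adjusted p = 0.156), with no overlap between those days.

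Of the period genes, whose proteins repress CLOCK and BMAL1, Per3 followed the course of Dbp at a smaller size. On slide 1 Per3 had levels of -1.94 and -1.14 at day 0, of -2.76, -2.41 and -2.94 at day 3, and of -1.001, -0.83 and -0.74 at day 7. On slide 2 it had -0.040, -0.57, -0.52 and -0.23 at day 14, against -1.37, -0.65, -1.19 and -1.85 at day 0. No array of day 3 reached any array of another day, and day 14 lay above all of day 0 on its slide. At day 3 Per3 fell by 1.05 ± 0.28 against day 0 (2.06-fold lower, adjusted p = 0.0446), and it rose at day 7 over day 3 by 1.84 ± 0.26 (3.59-fold, adjusted p = 0.00675). Its differences from day 0 of 0.80 ± 0.28 at day 7 and 0.93 ± 0.22 at day 14 did not pass (adjusted p = 0.0543 and 0.0762), although slide-adjusted samples did not overlap on either day.

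Per1, which is also induced by glucocorticoids, passed nowhere and spread widely at day 7. Its day 7 levels were 2.47, 5.17 and 3.74, against 3.22, 2.54 and 3.46 at day 3 and 2.91 and 3.92 at day 0 on the same slide. The 3 day 7 samples alone span more than the arrays of both other days. Day 14 arrays had 4.73, 4.37, 5.25 and 5.19, against 3.45, 4.20, 3.99 and 4.43 at day 0 on slide 2, a difference of 0.87 ± 0.45 (adjusted p = 0.298). Per2 was above background on 1 of 3 arrays at day 3, with levels of -2.65, -4.16 and -5.49, so the size of its day 3 difference of -1.65 ± 0.68 (adjusted p = 0.151) is limited by background. Its day 0 levels were -2.98 and -1.90 on slide 1.

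The REV-ERB genes Nr1d1 and Nr1d2 code for repressors of Arntl and Nfil3. Nr1d2 had day 7 levels of 1.71, 1.97 and 1.62, against 0.93, 0.95 and 0.59 at day 3, with no overlap. It rose at day 7 over day 3 by 0.94 ± 0.16 (1.92-fold, adjusted p = 0.0221). Against day 0, where slide 1 arrays had 1.13 and 1.63, Nr1d2 differed by -0.50 ± 0.18 at day 3 (adjusted p = 0.103) and by 0.44 ± 0.18 at day 7 (adjusted p = 0.0898). Day 14 arrays had 1.68, 1.72, 1.74 and 1.68, the narrowest spread of its 4 days, with a difference from day 0 of 0.21 ± 0.14 (adjusted p = 0.421).

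Nr1d1 depended on the slide more than any other of the 10 genes. The same 2 day 0 RNA samples had levels of 3.80 and 4.09 on slide 1 but 2.32 and 2.31 on slide 2, and the fitted slide difference was 1.76, against -0.64 to 0.48 for the other 9 genes. Day 3 arrays, on slide 1, had 1.56, 1.62 and 2.10, and day 7 arrays had 3.07, 2.15 and 3.37. These lie below the day 0 arrays of their own slide, while both days overlap the day 0 levels of slide 2, which were 1.81 to 2.32. With slide in the model, Nr1d1 fell by 2.07 ± 0.31 at day 3 (4.21-fold lower, adjusted p = 0.00819) and fell by 0.97 ± 0.31 at day 7 (1.96-fold lower, adjusted p = 0.0368). Without the 2 slide 1 arrays of day 0, the day 3 difference was -0.32 ± 0.27 (adjusted p = 0.543). The day 7 difference was then 0.79 ± 0.27 (adjusted p = 0.0662). Both calls and the sign at day 7 thus rest on those arrays. Without them, days 3 and 7 lie on slide 1 alone and days 0 and 14 on slide 2 alone. That fit has no slide term, so these differences include the one between the slides. Day 7 minus day 3, within slide 1, was 1.102 ± 0.29 (adjusted p = 0.0967). At day 14 Nr1d1 had 1.58, 1.65, 1.89 and 2.26, against 2.32, 2.31, 1.87 and 1.81 at day 0 on the same slide, which overlap (difference -0.23 ± 0.25, adjusted p = 0.633).

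Ciart codes for a repressor of CLOCK and BMAL1 and rose from a level near background. It was well above background on 2 of 6 arrays at day 0, on 0 of 3 at day 3, on 3 of 3 at day 7 and on 3 of 4 at day 14. The day 7 levels were -1.77, 0.57 and -1.63, against -6.14, -5.43 and -5.41 at day 3, where the probe was not well above background. With this processing the day 7 mean of Ciart, -0.94, was 6.10-fold above a day 3 floor of -3.55 (measured day 3 mean -5.66, adjusted p = 0.0268 by limma). The floor is the mean over the 3 day 3 arrays of the lowest level of any probe well above background. A probe can lie above such a level and still not be well above background. Ciart did so at -1.73 in day 14 RNA sample 2, where the lowest level was -1.84. The 6.10-fold is therefore not a strict lower bound. That fold also holds for this processing only, since the difference of day 7 from day 3 was 1.63 with normexp background (adjusted p = 0.0105) and 2.12 in the deposited series table (adjusted p = 0.0619). Day 14 arrays had -0.64, -1.73, -0.59 and 0.18, of which -1.73 was not well above background. At day 0 Ciart had -4.59, -1.41, -4.39 and -4.30 on slide 2, and the difference of day 14 from day 0 was 2.98 ± 0.74 (adjusted p = 0.0783). No fold is given for day 3 against day 0, since the day 0 mean lay below the day 3 floor. Ciart passed the filter through the days on which it was high.

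Bhlhe41 codes for a repressor that binds E-boxes, and it passed in no comparison. It had slide-adjusted levels of -1.59 ± 0.34, -2.03 ± 0.18, -1.04 ± 0.78 and -1.12 ± 0.15 at days 0, 3, 7 and 14 (SD, n = 4, 3, 3 and 4). Its day 7 level was 0.99 ± 0.30 above day 3 (adjusted p = 0.151), with no overlap. The 2 Bhlhe41 probes disagreed at day 7 against day 0, with 0.54 ± 0.33 for the probe used and -0.65 for the other.

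Day 3 against day 0 asks what had happened to the output genes while oxygen was still falling. Of the 10, 3 fell (Dbp, Nr1d1 and Per3) and 0 rose, where 3.82% of all features fell and 6.09% passed in either direction. The median difference of the 10 was -0.77, against 0.063 over all 22126 features. Slide-adjusted samples of the 2 days did not overlap for 5 of the 10, where 30.7% of all features did not overlap. These 5 were Dbp, Nr1d1, Per3, Nr1d2 and Ciart. Ciart was above background on 0 of 3 day 3 arrays, so its lack of overlap rests on background readings. Within slide 1 alone, with 2 day 0 arrays, the differences were -2.41 for Dbp, -2.18 for Nr1d1 and -1.16 for Per3, and 0 of the 10 passed by limma (adjusted p = 0.11 for Dbp and Nr1d1, and 0.127 for Per3), with 5 at an unadjusted p under 0.05. Of all 22126 features, 0 passed there and 4555 had an unadjusted p under 0.05. Leaving out day 0 RNA sample 2 gave -1.85 for Dbp, which still passed (adjusted p = 0.0421), -1.89 for Nr1d1 (adjusted p = 0.18) and -0.72 for Per3 (adjusted p = 0.304). For Per3 the call was lost in 10 of the 14 fits that leave out 1 RNA sample, those without RNA samples 1, 2 or 3 of day 0, 1, 2 or 4 of day 3, 1 of day 7, or 2, 3 or 4 of day 14, with differences of -1.30 to -0.72.

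Day 7 against day 0 asks about the end of the fall in oxygen. Here 1 of the 10 rose (Tef) and 1 fell (Nr1d1), where 23.8% of all features passed, 15.6% higher and 8.14% lower, so the share of the 10 that passed is near the background. The median difference was 0.49, against 0.090 over all features, with 8 positive and 2 negative values. Samples did not overlap for 4 of the 10, against 41.7% of all features. Within slide 1 alone, Tef differed by 0.98 (adjusted p = 0.0424) and Nr1d1 by -1.08 (adjusted p = 0.0761). Without day 0 RNA sample 2, Tef differed by 1.02 (adjusted p = 0.0615) and Nr1d1 by -0.79 (adjusted p = 0.257), while Dbp passed at 1.40 (adjusted p = 0.0456). For Nr1d1 the call was also lost without day 7 RNA sample 1 (-1.08, adjusted p = 0.0551) or 2 (-0.62, adjusted p = 0.138), or without day 0 RNA sample 1 (-1.09, adjusted p = 0.0907).

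Day 7 against day 3 compares the end of the fall with its middle, on arrays of 1 slide. Dbp, Per3, Nr1d2, Tef and Ciart rose, 5 of the 10, and 0 fell, where 0.447% of all features rose and 0.678% passed in either direction. Ciart, above background on 0 of 3 arrays at day 3, entered the test through the days on which it was high, and 4 of the other 9 rose. The median difference was 1.13, against 0.053 over all features, and samples did not overlap for 8 of the 10, against 17.2% of all features. At an unadjusted p under 0.05 there were 9, against 3311 of all 22126 features. Ciart is among both the 8 and the 9, and Per2, also faint at day 3, is among the 9. A fit to the 8 arrays of slide 1 alone called 0 of the 10 by limma (8 at an unadjusted p under 0.05, adjusted p = 0.0625 for Dbp), with the same differences. There 0 of all 22126 features passed and 2624 had an unadjusted p under 0.05. The fit to the 6 arrays of these days alone kept Dbp (3.26 ± 0.15, adjusted p = 0.00101) and no other of the 10, among 2 features called in all. Leaving out 1 RNA sample kept Dbp, Per3 and Tef in each of 14 fits. Nr1d2 and Ciart lost the call in 4 fits each, those without day 3 RNA sample 1 (0.99 and 4.47), day 3 RNA sample 4 (0.82 and 4.84), day 7 RNA sample 1 (0.97 and 5.13) or day 7 RNA sample 2 (0.84 and 3.96).

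**Figure D3:**
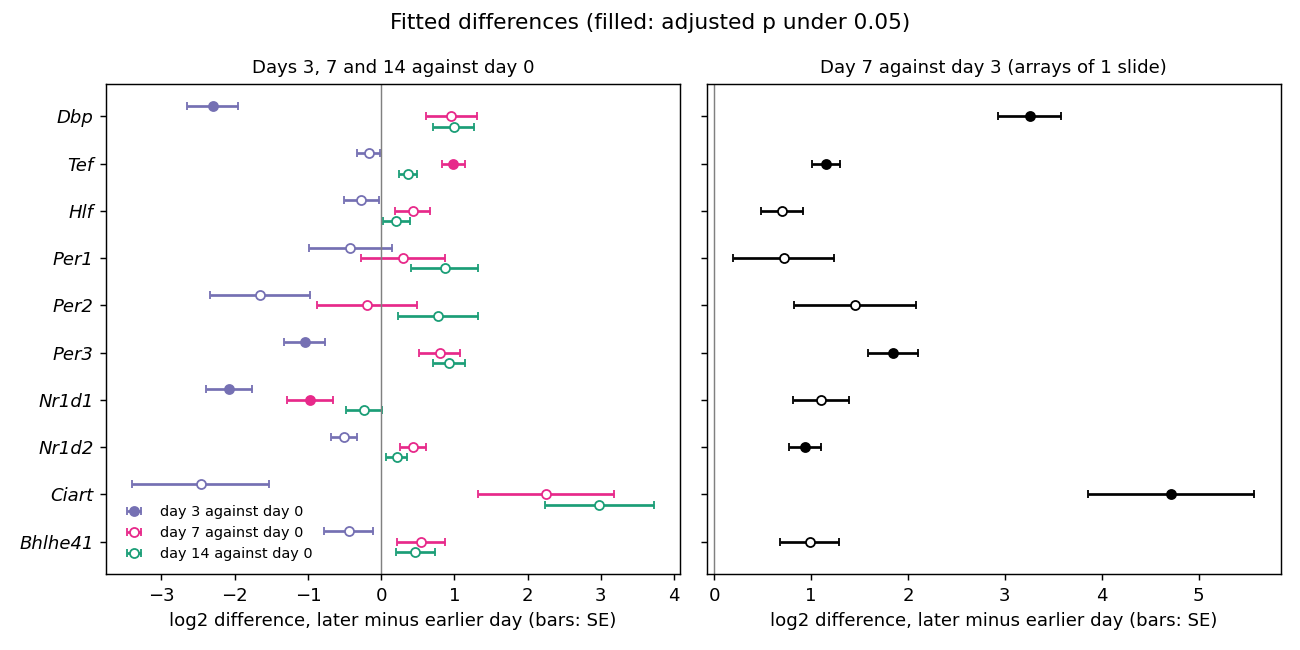
Fitted log2 differences (later minus earlier day) of the 10 genes with SE bars, for days 3, 7 and 14 against day 0 (left) and for day 7 against day 3 (right), filled where the adjusted p was under 0.05. All day 3 points lie left of 0, all points of day 7 against day 3 lie right of it, and Dbp reaches -2.30 and 3.26.

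Day 14 against day 0, both on slide 2, asks what was left after a week of held oxygen. None of the 10 passed by limma (0 of 10, with 4 at an unadjusted p under 0.05). Of all 22126 features, 0.402% passed, 0.294% higher and 0.108% lower, and 4563 had an unadjusted p under 0.05. The median difference was 0.62, against 0.057 over all features, and 9 of 10 values were positive. Samples of Per3 and Tef did not overlap with day 0, 2 of the 10, against 15.1% of all features. With trend and robust settings of limma, or in the deposited series table, 2 of the 10 passed (Per3 and Ciart in both).
Day 14 against day 7 spans both slides. Again 0 of 10 passed by limma, with 1 at an unadjusted p under 0.05 (Tef). Of all 22126 features, 2.3% passed, 1.12% higher and 1.18% lower, and 4890 had an unadjusted p under 0.05. Samples did not overlap for 2 of the 10 (Nr1d2 and Tef), against 32.5% of all features. Dbp differed by 0.030 ± 0.40, Per3 by 0.13 ± 0.33 and Ciart by 0.73 ± 1.08, with intervals (95%) of -0.84 to 0.90, -0.57 to 0.83 and -1.60 to 3.06.

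The genes of the opposite arm include the activators, the Cry genes and those that REV-ERB proteins repress. Of 9, 7 were measured, since Npas2 and Cry1 were well above background on 2 arrays each and were not tested. The median difference of the 7 was 0.23 at day 3 against day 0 and -0.12 at day 7 against day 3. Nfil3, which codes for the D-box repressor that competes with DBP, had 4.43, 4.15 and 3.34 at day 3, against 3.00 and 2.34 at day 0 on the same slide. Its day 7 levels were 1.68, 2.32 and 1.32. Day 3 lay above and day 7 below the day 0 arrays of slide 1. Nfil3 rose at day 3 by 1.29 ± 0.35 (adjusted p = 0.0478) and fell by 2.20 ± 0.33 at day 7 against day 3 (adjusted p = 0.00965), the reverse of Dbp over these days. At day 14 Nfil3 differed from day 0 by -0.082 ± 0.28 (adjusted p = 0.901) and from day 7 by 0.83 ± 0.41 (adjusted p = 0.254). Alternatives of the processing were not examined for Nfil3.

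Arntl, which codes for BMAL1, had levels of 2.15, 2.44 and 2.29 at day 3, against 1.81 and 1.13 at day 0 on slide 1, and 1.68, 0.74 and 1.60 at day 7. The day 3 arrays are the highest, but neither 0.73 ± 0.31 for day 3 against day 0 (adjusted p = 0.165) nor -0.95 ± 0.29 for day 7 against day 3 (adjusted p = 0.144) passed. Clock differed by 0.63 ± 0.19 at day 3 from day 0 (adjusted p = 0.0614). Cry2, a repressor that joins PER, passed where Tef did. It rose at day 7 by 1.01 ± 0.19 over day 0 (adjusted p = 0.00403) and by 0.84 ± 0.17 over day 3 (adjusted p = 0.0447). Rora, which codes for a retinoid-related receptor that activates Arntl, passed in no comparison, with a day 3 difference from day 0 of 0.23 ± 0.15. Bhlhe40, the closest relative of Bhlhe41, differed by 0.76 ± 0.24 at day 7 from day 3 (adjusted p = 0.162).

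**Figure D4:**
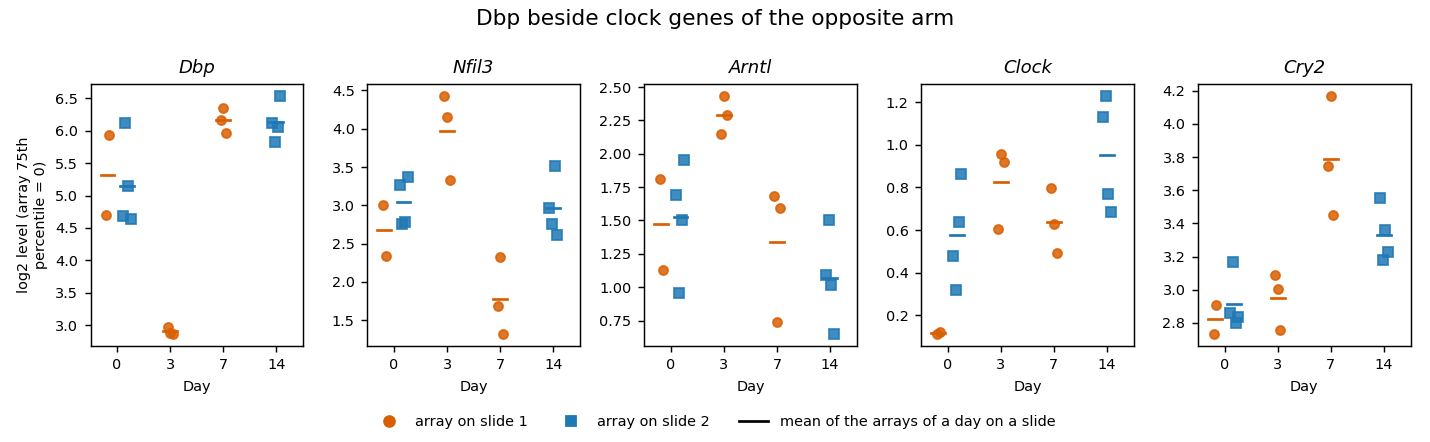
Levels of Dbp, Nfil3, Arntl, Clock and Cry2 on every array, in log2 units relative to the array's 75th percentile, by day, with orange circles for slide 1, blue squares for slide 2 and a bar at the mean of a day on a slide. Nfil3 is highest at day 3 (3.34 to 4.43) where Dbp is lowest (2.87 to 2.97), and lowest at day 7 (1.32 to 2.32).

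Further clock-linked genes were described by list. Of 14 genes for clock protein modifiers and partners, 13 were measured. At day 7 against day 0, 9 rose and 0 fell, among them Csnk2a1 (0.65 ± 0.10, adjusted p = 0.00289), a kinase subunit of CK2, and Btrc (0.98 ± 0.16, adjusted p = 0.00325), the F-box protein that marks PER for breakdown. The list's median there was 0.49, where 15.6% of all features rose. At day 3, Fbxw11 (0.59 ± 0.15) and Gsk3b (0.44 ± 0.12) rose, and Btrc rose at day 7 over day 3 (0.72 ± 0.15, adjusted p = 0.0453). None of the 13 passed at day 14 against day 0 or day 7.

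Of 15 clock-controlled output genes known from other mouse tissues, all measured, 0 passed at day 3 by limma (median -0.14), and the median at day 7 against day 0 was 0.16. At day 7 against day 0, 3 of the 15 passed, which is near the 23.8% of all features. Of these, Pdk4, a pyruvate dehydrogenase kinase, rose by 1.18 ± 0.34, Coq10b rose by 0.999 ± 0.33, and Myod1, a myogenic transcription factor and clock target in muscle, fell by 1.73 ± 0.46. Coq10b rose at day 7 over day 3 (1.58 ± 0.31, adjusted p = 0.0369) and Pdk4 fell at day 14 against day 7 (-1.69 ± 0.40, adjusted p = 0.0449).
Of 15 glucocorticoid-responsive genes, all measured and Per1 among them, only Fbxo32, an atrophy ubiquitin ligase, passed in the 5 comparisons (0.72 ± 0.21 at day 7 against day 0, adjusted p = 0.0272, where the list's median was 0.26). Of 15 hypoxia-inducible factor targets, all measured, 0 passed at day 3 and 4 rose at day 7 against day 0, with Ankrd37 (0.64 ± 0.13) and Pfkfb3 (1.49 ± 0.34) first by p and a median of 0.097, where 15.6% of all features rose. Ankrd37 alone of this list rose at day 14 over day 0 (1.14 ± 0.11, adjusted p = 0.00139) and at day 7 over day 3 (0.91 ± 0.12, adjusted p = 0.0057).

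Markers of cell types that a soleus sample can hold also differed between days, and their part in the clock gene differences was not tested. At day 7 against day 3, macrophage markers (5 of 6 measured) had a mean level of -0.037 to 0.23, against 0.64 to 2.12, and 1 of 5 fell (Mrc1, -1.18 ± 0.25). At day 7 against day 0, C1qa (-1.62 ± 0.36) and C1qb (-1.53 ± 0.36) fell. At day 3 against day 0, adipocyte markers (6 of 7 measured) had 3.37 to 4.11, against 2.72 to 2.94, and 0 passed in any comparison. Red blood cell markers (3 of 5 measured) had 6.40 to 7.42 at day 14, against 4.80 to 5.39 at day 0, and all 3 rose, while at day 3 Alas2 fell by 1.16 ± 0.31.
Of 6 tendon and sheath markers, Fmod alone passed, at day 14 against day 0 (-2.07 ± 0.39) and against day 7 (-2.60 ± 0.57). Of 6 endothelial markers, Tie1 fell at day 3 (-0.95 ± 0.18) and day 7 (-0.95 ± 0.18) and Pecam1 at day 7 (-0.65 ± 0.16). The median difference of these 6 was -0.15 at day 3 and -0.22 at day 7. Kdr went the other way without passing, with mean slide-adjusted levels of 3.85, 4.24 and 4.07 at days 0, 3 and 7. Cdh5 had 2.89, 2.86 and 3.12. Slow fibre markers fell for 1 of 8 at day 3 (Tnni1, -0.87 ± 0.20) and 3 of 8 at day 7 (Casq2, -0.99 ± 0.19, Tnni1, -1.05 ± 0.20, and Tnnc1), where 3.82% and 8.14% of all features fell, and the list's median difference was -0.052 at day 3 and -0.057 at day 7. Fast fibre markers had a mean level of 8.22 to 8.32 at day 3, against 7.25 to 7.94 at day 0, with no overlap and a median difference of 0.11. The 1 of 10 that passed at day 3 was lower (Mylpf, -0.72 ± 0.19), while Myh4 differed by 5.16 ± 1.57 (adjusted p = 0.0683) and Pvalb by 1.69 ± 0.51 (adjusted p = 0.0651). At day 7 against day 0, 1 of 10 rose (Pvalb, 1.65 ± 0.51).

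Within a day, several output genes stood high in the same RNA sample. Day 0 RNA sample 2 on slide 2 had a Dbp level of 6.12, against 4.69, 5.15 and 4.64 in the other day 0 samples there. Its Ciart level was -1.41, against -4.59, -4.39 and -4.30, which were not well above background. The same sample had the lowest Arntl level, 0.95, against 1.69, 1.50 and 1.95. Day 7 RNA sample 2 had the highest Per1 (5.17), Ciart (0.57) and Dbp (6.35) of its day, and the lowest Arntl (0.74) and Nr1d1 (2.15).
Deviations from the day mean were correlated over the 14 RNA samples for all 55 pairs of the 10 genes and Arntl, by an exact 2-sided permutation test within days. Pearson's r was positive for 38 of the 45 pairs among the 10 genes, and was lowest for Nr1d1 with Tef (-0.57). Of the 55 pairs, 16 had an unadjusted p under 0.05, but 0 passed after adjustment over the 55. The pairs share genes and are not independent. Pairs of other features were not correlated, so no background share stands beside these counts. The smallest p belonged to Dbp with Arntl, at r = -0.81 (permutation p = 0.000965, adjusted p = 0.053) and -0.79 without the 2 samples farthest from the median of Dbp, and Spearman's rho on ranks within days was -0.79 (permutation p = 0.0131, adjusted p = 0.227). Next by p was Nr1d2 with Tef, at r = 0.74 (permutation p = 0.00415, adjusted p = 0.07) and 0.88 without the 2 farthest samples, with rho = 0.71 (permutation p = 0.0288, adjusted p = 0.227). These pairs share RNA samples and arrays, and the slide cannot enter a difference within days 3, 7 and 14.

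For the 3 genes with the smallest F-test p, the named genes with the most similar slide-adjusted course over the 14 RNA samples are given as a description. Dbp was closest to Stard3 (r = 0.96), a late endosomal cholesterol transporter, and near to Foxo6 (0.91), H1f2 (0.90) and Kdm6b (0.88). It was most opposite to Tmem171 (-0.94), C4b (-0.89) and Arntl (-0.88). Per3 was closest to Foxo6 (0.94) and Stard3 (0.94), then Amigo3 (0.87), Art5 (0.87) and Ankrd37 (0.86), and most opposite to C3 (-0.91), C4b (-0.89) and Tmem171 (-0.88). Tef was closest to Dedd2 (0.97), Fam214a (0.93), Cir1 (0.93), Rb1cc1 (0.92) and Cldn12 (0.92), and most opposite to Prkcd (-0.90), C1qa (-0.90) and Ccl6 (-0.90). Dbp and Per3 thus share Stard3 and Foxo6 as near neighbours and C4b and Tmem171 as opposites, with none of these among those of Tef.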

How the data were processed

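Mouse soleus RNA was labelled with Cy3 and hybridised to Agilent 1-colour arrays, per the labels' protocols. The deposited scanner files hold spot intensity on a linear scale, background-subtracted and without scaling between arrays, per the file headers. The deposited series table also holds intensity, by steps that are not stated, and served only as an alternative. Levels are log2 intensities minus the array's 75th percentile over spots that are not controls, averaged over the spots of a probe. Probes were named through RefSeq transcripts, and each gene took its brightest probe on average among those well above background on 3 or more of 16 arrays.

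Days were compared with limma 3.58.1 (statmod 1.5.0, R 4.3.3) by its moderated test, 2-sided, with fixed terms for day and slide and a random block for arrays of one RNA sample (correlation 0.448). Benjamini-Hochberg adjustment covered all 22126 features in each of 5 comparisons. The fit was also run on data simulated from its own model, with the same slide effects and correlation. Such data cannot test the link between the slides or the behaviour of faint probes. The arrays were designed on another assembly than that of the promoter table, so coordinates are those of the table alone. Named genes were the 10 genes, 9 further clock genes, up to 2 per direction for each other list, and the 5 most and 3 least similar genes of the 3 with the smallest F-test p. Some genes that this rule names are not reported here. Where the text lists more called genes than that, they were added after their values were seen. The genes and all lists were chosen with earlier results of these data known. Alternatives covered the slide, the background (normexp with an offset of 50, on the median spot signal since no mean signal was used here), scaling, the filter, the probe, the test's settings and each RNA sample. Permutation tests and figures used Python 3.11.15, NumPy 2.4.6, pandas 2.3.3, SciPy 1.17.1 and Matplotlib 3.10.9.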

Additional observations from a re-analysis of the deposited data

Results flagged for a closer look

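Ciart at day 0 had a slide-adjusted level of -1.32 in RNA sample 2, above the other 3 day 0 samples. These lay between -4.57 and -4.07 and were not well above background, so the size of the gap is limited by background. It was the only gap of this kind among 20 groups of 4 samples checked (10 genes at days 0 and 14), and chance flags about 1 in 20 groups. For 5 genes the difference from day 0 was positive at day 7 and negative at day 3, and the difference between these was itself past the threshold. That difference, day 7 minus day 3, was 3.26 for Dbp, 1.84 for Per3, 0.94 for Nr1d2, 1.16 for Tef and 4.72 for Ciart (fitted, from day 3 arrays that were not well above background).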

How the results depend on the processing

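Over 1390 alternative values of the 10 genes, 1260 kept direction and side of the threshold, 51 lost it, 43 gained it and 36 changed sign. Most values were not called, and only called values can lose the threshold. Per3 at day 3 lost its call in 15 of 28 alternatives, and Ciart at day 7 against day 3 in 11 of 28. Nr1d1 at day 7 lost it in 6 of 28 and changed sign in 2. Dbp lost it in 1 of 28 at day 3 and in 1 of 29 at day 7 against day 3. The limits are 3 RNA samples at days 3 and 7, faint probes for Ciart and Per2, and 2 arrays that tie slide 1 to day 0. The cause of each change below was not tested.

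In the order day 3, 7 and 14 against day 0, day 7 against day 3 and day 14 against day 7, the counts of 10 genes called (3, 2, 0, 5 and 0) became 2, 1, 4, 3 and 0 with no slide term, and 4, 3, 0, 5 and 1 without the slide 1 arrays of day 0. The fit without those arrays also has no slide term. In it, only day 14 against day 0 and day 7 against day 3 lie within a slide. Averaging the arrays of an RNA sample gave 6 at day 7 against day 0 and 1 at day 14 against day 7, as did normexp background. Probes above background on all arrays gave 5, 2 and 1 for day 7 and day 14 against day 0 and day 14 against day 7. That filter leaves out Ciart and Per2, so its counts are not of all 10 genes. No filter on dim probes gave 1 at day 7 against day 0 and 3 at day 7 against day 3. Trend and robust settings gave 2 at day 14 against day 0 and 1 at day 14 against day 7, and the series table gave 2 at day 14 against day 0, but lost Per3 at day 3 (-0.59, adjusted p = 0.0755) and Ciart at day 7 against day 3 (2.12, adjusted p = 0.0619). Within slide 1 alone the counts by limma were 0 (5 unadjusted) at day 3 and 1 at day 7 against day 0, and 0 (8 unadjusted) at day 7 against day 3, and days 3 and 7 alone gave 1. Over leave-outs the counts ran from 1 to 3, 1 to 3, 0 to 2, 3 to 5 and 0 to 1, and the F-test gave 4 to 7. Pairs deviating together within days numbered 5 after quantile normalization and 0 to 2 over leave-outs. Without day 0 RNA sample 1 or 2 the correlation of arrays could not be estimated and that of the full fit was used.

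The replicate block gave 2, 4, 0, 4 and 0 calls. Same-numbered samples did not deviate together (correlations -0.15 to 0.17 over 19 pairs), so the numbers were not taken as pairs.

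Signs changed mostly for values that were not called. At day 14 against day 7, Dbp was -0.11 with arrays averaged, -0.13 with the mean over probes, -0.023 with no slide term or without the slide 1 arrays of day 0, -0.20 with normexp, -0.042 with the replicate block, -0.28 for its second probe, and -0.11 to 0.24 over leave-outs. Per3 was -0.014 with arrays averaged and -0.13 with normexp, and Ciart -0.088 with normexp. Bhlhe41 was 0.43 with the mean over probes, 0.57 with no slide term or without the slide 1 arrays of day 0, 0.94 for its second probe, 0.043 in the series table and -0.42 to 0.35 over leave-outs. Hlf was 0.12 and Nr1d1 -1.02 with no slide term or without the slide 1 arrays of day 0 (Nr1d1 then passed, adjusted p = 0.0225, only without those arrays), and Per1 -0.094 to 1.25 over leave-outs. With no slide term or without those arrays, day 14 against day 7 cannot be separated from the slide. At day 7 against day 0, Nr1d1 was 0.11 with no slide term and 0.79 without the slide 1 arrays of day 0. Bhlhe41 was -0.051 with the mean over probes, -0.65 for its second probe and -0.099 without the slide 1 arrays of day 0. Per2 was 0.019 with normexp and -0.72 to 0.20 over leave-outs, and Per1 -0.22 without the slide 1 arrays of day 0 and -0.39 to 0.96 over leave-outs.

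Over all features, the 1348, 5261, 89, 150 and 508 calls became 260, 3283, 3101, 62 and 2578 with no slide term and 3491, 7133, 23, 730 and 4157 with normexp.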
